A study of Mus musculus with 2 samples.

Results

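The genes described here encode lectin-like receptors of natural killer (NK) cells and T cells that lie outside the Ly49 family. They are KLRG1 (Klrg1), the CD94 and NKG2 chains (Klrd1, Klrc1, Klrc2 and Klrc3), NKG2D (Klrk1), the KLRE1 and KLRI2 chains (Klre1 and Klri2) and the NKR-P1 receptors NKR-P1B and NKR-P1F (Klrb1b and Klrb1f). They were chosen by gene symbol, with earlier results of these data known. All 10 were found among the 22609 genes listed in the count table of each library. Each was compared between 1 library of CD8+ regulatory T cells from Tgfbr2-/-Eomes-/- mice, called DKO, and 1 library of the same cells from wild-type (WT) mice. Flow cytometry was used to sort all cells, from the spleens of naïve animals that were 3 months old. The labels give neither the sort markers, the number of mice per library nor the promoter or Cre line by which Tgfbr2, a TGF-beta receptor subunit, and Eomes, a T-box transcription factor, were removed.

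CD8+ regulatory T cells restrain activated T cells, in part by recognising peptides on Qa-1, a non-classical MHC class I molecule encoded by H2-T23. Qa-1 is also the ligand of CD94 paired with an NKG2 chain, so that the same molecule can engage an inhibitory receptor (CD94 with NKG2A) or activating ones (CD94 with NKG2C or NKG2E). NKG2D binds stress-induced ligands such as RAE-1, NKR-P1 receptors bind Clr proteins of the Clec2 family, and KLRG1 binds cadherins. Genes for all of these receptors lie on chromosome 6, and most of them sit in the NK gene complex.

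Gene counts summed to 19661212 in the DKO library and 22307065 in the WT library. Eomes had 3589 counts in the DKO library and 10292 in the WT library, and Tgfbr2 had 4882 counts in the DKO library and 7825 in the WT library. After scaling to library size, Eomes was 2.61-fold lower in DKO and Tgfbr2 1.46-fold lower, the latter short of 2-fold. Transcripts of both targeted genes were thus lower to unlike degrees but still counted in DKO cells. The counts cover whole genes and do not show whether the deleted exons were read. Markers of CD8 T cells were abundant in both libraries, at a summed 4210 CPM (counts scaled to library size) in DKO and 4475 CPM in WT over Cd3d, Cd3e, Cd3g, Cd8a and Cd8b1. Markers of other cells were also present and were higher in DKO. The 7 NK cell markers summed to 939 CPM in DKO and 465 CPM in WT, none of them was at 0, and 4 were at least 2-fold higher. These 4 were Ncr1, Fcgr3, Tyrobp and Fcer1g. Tyrobp, at 344 CPM in DKO, and Fcer1g, at 194 CPM in DKO, are also abundant in myeloid cells. Klrb1c (1.72-fold higher), Itga2 (1.01-fold) and Ncam1 (1.90-fold, interval 0.970 to 3.86) met neither limit. The 6 myeloid markers summed to 3095 CPM in DKO and 1115 CPM in WT, with 5 at least 2-fold higher, and the 4 CD4 T cell markers to 202 CPM in DKO and 89.99 CPM in WT, with 3 at least 2-fold higher. The 3 B cell markers summed to 19.1 CPM in DKO and 10.03 CPM in WT, with 1 at least 2-fold higher. Of 5 innate-like T cell markers 3 were listed, at a summed 5.80 CPM in DKO and 2.74 CPM in WT, and 1 of the 2 with at least 1 CPM was at least 2-fold higher. Their part in the results below was not tested, and with sorted bulk cells, fewer cells of a type and less RNA per cell cannot be told apart.

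The receptor genes differed unevenly between the libraries. KLRG1 stood far above the rest, and Klrb1b, Klrb1f and the activating NKG2 genes Klrc2 and Klrc3 were at least 2-fold higher. CD94 and NKG2D were moderately higher, and Klre1 was lower. The NKR-P1 genes Klrb1a and Klrb1c, outside this group, were less than 2-fold higher. All 10 genes reached 1 CPM in at least 1 library. Klrc3 did so in DKO only, so it could be called higher or neither, but not lower. The log2 ratio of DKO over WT had to be at least 1 for a higher gene, or at most -1 for a lower one, with an exact 95% interval that did not include a ratio of 1. By this rule 5 receptor genes were higher, 0 lower and 5 neither. The same rule found 11.6% of the 11735 genes that reached 1 CPM in a library to be higher and 3.6% to be lower. The median log2 ratio of the receptor genes was 0.83, against 0.00 for all genes. The share of higher genes in the background depended on abundance, taken as the larger CPM of the 2 libraries. It was 34.96% of genes from 1 to 5 CPM, where Klrc3 lies, 18.7% from 5 to 20 CPM, where Klrc2 lies, 4.71% from 20 to 100 CPM, and 2.17% at 100 CPM or more. From 20 to 100 CPM, 3 of 5 receptor genes were higher (Klrg1, Klrb1b and Klrb1f), and at 100 CPM or more 0 of 3 were (Klrd1, Klrk1 and Klre1). Each genotype has 1 library, so the differences have no replicate check, no p-value can be given, and the intervals cover counting error only.

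**Figure D1:**
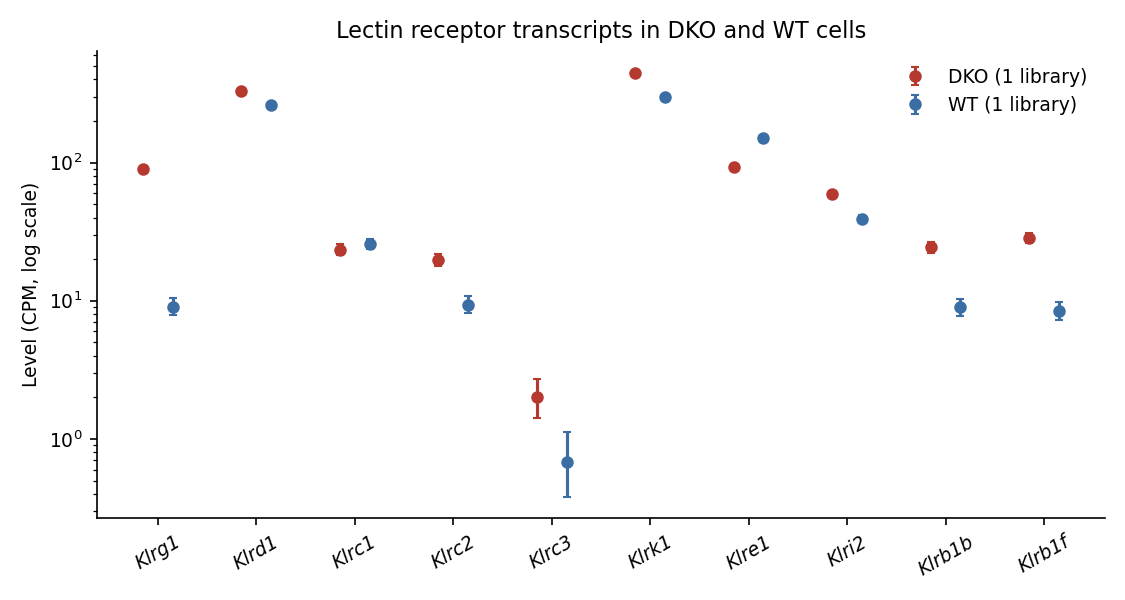
Level of each receptor gene in CPM on a log axis, in the DKO library (red, left of each pair) and the WT library (blue, right). Bars are exact 95% Poisson intervals of the count, and the 2 libraries lie furthest apart for Klrg1, at 90.1 CPM in DKO and 9.07 CPM in WT.

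Klrg1 encodes an inhibitory receptor that marks terminally differentiated effector CD8+ T cells and mature NK cells and binds E-cadherin, N-cadherin and R-cadherin. It had 1802 counts in the DKO library and 199 in the WT library, which is 90.1 CPM in DKO and 9.07 CPM in WT. The DKO library was thus 9.94-fold higher (interval 8.58 to 11.6), and the counting intervals of the 2 levels were far apart. Only 1 other gene of the 4928 between 20 and 100 CPM had a larger ratio. Klrg1 made up 8.12% (7.76 to 8.49) of the summed counts of the 10 receptor genes in DKO and 1.12% (0.974 to 1.29) in WT. Its ratio was larger than that of any of the 7 NK markers, the highest of which was Ncr1, encoding the NK receptor NKp46, at 86.6 CPM in DKO and 33.5 CPM in WT (2.59-fold higher). There were 1.04 Klrg1 counts per Ncr1 count in DKO and 0.271 in WT. Several markers of CD4 T and myeloid cells had larger ratios than Ncr1, up to 6.10-fold for Cd40lg and 4.78-fold for S100a8, and others had smaller ones. Which cells held the Klrg1 transcripts was not tested.

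Genes that accompany KLRG1 in effector T cells were mostly higher as well. In this list of 8, 7 passed the 2-fold limit upwards and 0 downwards, beside 11.6% higher and 3.6% lower among all genes. The median log2 ratio of the list was 1.70. This list and that of memory genes below were chosen with earlier results of these data known. Cx3cr1, a chemokine receptor of circulating effector cells, had 153 CPM in DKO and 29.6 CPM in WT (5.15-fold higher, 4.73 to 5.61). S1pr5, an egress receptor, had 91.4 CPM in DKO and 23.8 CPM in WT (3.84-fold higher, 3.48 to 4.24). Zeb2, a transcriptional repressor that promotes terminal differentiation, had 54.6 CPM in DKO and 19.7 CPM in WT (2.76-fold higher). Tbx21, the T-box gene related to Eomes, was the gene of this list that met neither limit, at 382 CPM in DKO and 348 CPM in WT. Of 6 genes that are typically high in memory cells with little KLRG1, 0 passed 2-fold, and all 6 had ratios below 1 under each scaling tried. Their median log2 ratio was -0.64, and Bach2, a repressor of effector genes, had 35.1 CPM in DKO and 60.6 CPM in WT (1.73-fold lower). Several of these effector genes are also transcribed in NK and myeloid cells, whose summed markers, given above, were higher in DKO too.

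The cadherin genes that encode KLRG1 ligands differed in level, with few or no counts for Cdh2 and Cdh4. Cdh1 (E-cadherin) had 424 counts in DKO and 188 in WT, at 21.2 CPM in DKO and 8.57 CPM in WT, and was 2.47-fold higher (2.08 to 2.95). Cdh2 had 5 counts in DKO and 0 in WT, and Cdh4 had 0 in both.

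**Figure D2:**
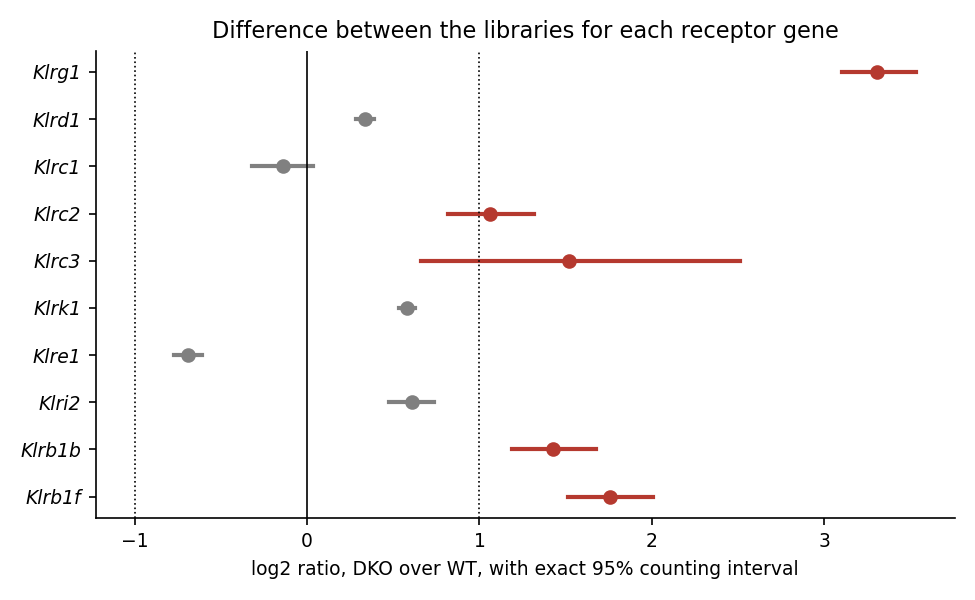
The log2 ratio of DKO over WT for each receptor gene, with its exact 95% counting interval as a bar. Red marks the 5 genes counted as higher; dotted lines are 2-fold limits, and Klre1 is the gene whose whole interval lies below 0.

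Klrd1 encodes CD94, the chain that every NKG2A, NKG2C or NKG2E receptor needs to reach the surface. Its counts were 6536 in DKO and 5676 in WT, at 327 CPM in DKO and 259 CPM in WT, which was 1.26-fold higher (1.22 to 1.31). The chains that pair with it were far scarcer. Klrc1, which encodes inhibitory NKG2A, had 469 counts in DKO and 568 in WT, at 23.5 CPM in DKO and 25.9 CPM in WT, a ratio of 0.906 whose interval (0.800 to 1.03) includes 1. Klrc2, which encodes activating NKG2C, had 393 counts in DKO and 206 in WT, at 19.7 CPM in DKO and 9.39 CPM in WT, and was 2.09-fold higher (1.76 to 2.49). Klrc3, which encodes NKG2E, had 40 counts in DKO and 15 in WT, at 2.00 CPM in DKO and 0.684 CPM in WT, and was 2.93-fold higher with a wide interval (1.58 to 5.70).

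The make-up of the NKG2 transcripts differed between the libraries, in a comparison of shares of counts, not corrected for length, where library scaling cancels. Klrc1 held 52.0% (48.7 to 55.3) of the summed counts of Klrc1, Klrc2 and Klrc3 in DKO and 71.99% (68.7 to 75.1) in WT. Klrc2 held 43.6% (40.3 to 46.9) in DKO and 26.1% (23.1 to 29.3) in WT, and Klrc3 4.43% (3.19 to 5.99) in DKO and 1.90% (1.07 to 3.12) in WT. There were 1.19 Klrc1 counts per Klrc2 count in DKO and 2.76 in WT. The sum of the NKG2 counts kept its proportion to CD94: of the counts of Klrc1, Klrc2, Klrc3 and Klrd1 together, the NKG2 genes held 12.1% (11.4 to 12.9) in DKO and 12.2% (11.4 to 13.0) in WT.

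**Figure D3:**
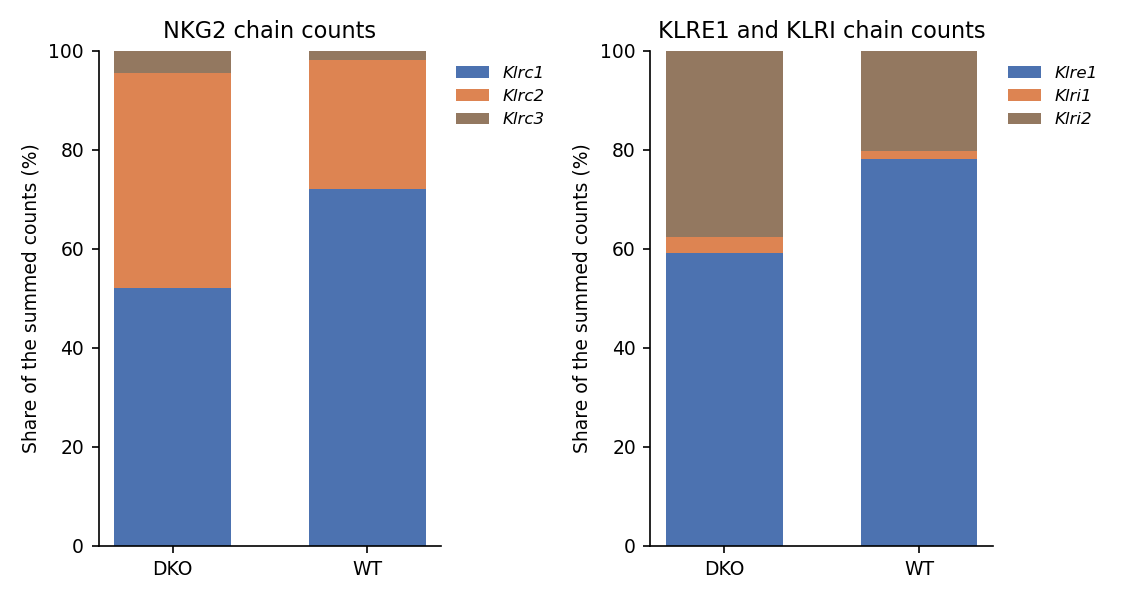
Stacked bars of the share of summed counts, in percent, for the NKG2 genes (left panel) and for Klre1, Klri1 and Klri2 (right panel), with DKO left of WT in each. The Klrc1 share is 52.0% in DKO and 71.99% in WT, and the Klre1 share is 59.1% in DKO and 78.1% in WT.

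The NKG2 genes are close copies, which bears on how far reads can be assigned to each. Of all windows of 50 bases, the read length, in the longest coding transcript, 40.3% of Klrc1, 30.1% of Klrc2 and 41.1% of Klrc3 also occur in another gene of the 3 in GENCODE transcripts. Reads from such windows would be expected to fall under non-unique alignments, so these counts rest on the remaining windows and their single values are uncertain. The windows from 250 bases before to 50 bases after the start of Klrc2 and Klrc3, which were both higher, were 99.0% identical over the aligned bases and shared an unbroken run of 150 bases. That of Klrc1 was 60.5% identical to that of Klrc2, within the 55.0% to 66.9% seen among the other pairs of receptor promoters, leaving aside Klrb1b with Klrb1f. The Klrc2 and Klrc1 windows are shown to let the activating and the inhibitory gene be compared. They are from RefSeq on build GRCm38.p6, both on the minus strand, at chr6:129660507-129660806 and chr6:129678924-129679223. Capitals mark the Smad-binding letters CAGAC, which the Klrc1 window does not hold on either strand. These letters are in 49.6% of all promoter windows and also in a window of Klre1, which was lower. Such matches describe letters, not binding.
Klrc2: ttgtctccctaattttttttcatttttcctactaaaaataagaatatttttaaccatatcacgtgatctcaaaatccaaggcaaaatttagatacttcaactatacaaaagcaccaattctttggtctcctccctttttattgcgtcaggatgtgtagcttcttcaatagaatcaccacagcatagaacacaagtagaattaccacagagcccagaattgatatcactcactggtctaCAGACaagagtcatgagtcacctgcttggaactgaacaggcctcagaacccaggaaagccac
Klrc1: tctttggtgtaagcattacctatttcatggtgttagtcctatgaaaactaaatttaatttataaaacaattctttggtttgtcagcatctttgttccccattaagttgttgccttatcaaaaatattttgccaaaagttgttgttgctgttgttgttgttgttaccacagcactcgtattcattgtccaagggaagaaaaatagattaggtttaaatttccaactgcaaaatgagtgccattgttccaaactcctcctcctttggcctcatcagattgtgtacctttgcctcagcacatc

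Klrk1 encodes NKG2D, an activating receptor that signals through the adaptor DAP10 (Hcst) and, in mouse, also DAP12 (Tyrobp). It had the highest counts of the group, 8857 in DKO and 6501 in WT, at 443 CPM in DKO and 296 CPM in WT, and was 1.49-fold higher (1.45 to 1.54). None of its 50-base windows occurs in another gene, nor do any of Klrg1, Klrd1, Klre1 or Klrb1f. The adaptor gene Hcst had 296 CPM in DKO and 273 CPM in WT and a log2 ratio of 0.11. Few reads were assigned to NKG2D ligand genes. Of 8 listed ligand genes, 7 (Raet1a to Raet1e, H60c and Ulbp1) had 0 counts in both libraries, which allows up to 0.150 CPM of assigned reads in DKO and 0.137 CPM in WT. The RAE-1 genes are close copies, so reads from them may have been left out as non-unique alignments. H60b had 10 counts in DKO and 0 in WT.

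Klre1 and Klri2 encode chains of a further heterodimer, in which KLRE1 pairs with inhibitory KLRI1 or activating KLRI2. Klre1 was the lower gene of the group, with 1861 counts in DKO and 3296 in WT, at 93.1 CPM in DKO and 150 CPM in WT, which was 1.61-fold lower (1.52 to 1.71) and short of the 2-fold limit. Klri2 went the other way, with 1182 counts in DKO and 852 in WT, at 59.1 CPM in DKO and 38.8 CPM in WT (1.52-fold higher, 1.39 to 1.66). Klri1, the inhibitory partner, had 106 counts in DKO and 73 in WT and was 1.59-fold higher (1.17 to 2.18). Klre1 held 59.1% (57.4 to 60.8) of the summed counts of Klre1, Klri1 and Klri2 in DKO and 78.1% (76.8 to 79.3) in WT. The split between the KLRI chains was alike within counting error, with Klri1 at 8.23% (6.79 to 9.87) of their counts in DKO and 7.89% (6.24 to 9.82) in WT.

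Both NKR-P1 genes of this group, Klrb1b and Klrb1f, were at least 2-fold higher. Klrb1b encodes NKR-P1B, an inhibitory receptor for Clr-b (Clec2d), and had 486 counts in DKO and 198 in WT, at 24.3 CPM in DKO and 9.03 CPM in WT (2.69-fold higher, 2.28 to 3.19). Klrb1f encodes NKR-P1F, an activating receptor for other Clr proteins such as Clr-g (Clec2i), and had 570 counts in DKO and 185 in WT, at 28.5 CPM in DKO and 8.43 CPM in WT (3.38-fold higher, 2.86 to 4.01). Klrb1f held 54.0% (50.9 to 57.0) of the counts of the pair in DKO and 48.3% (43.2 to 53.4) in WT, intervals that overlap. Of the Klrb1b windows 29.0% occur in other genes, namely Gm44511, Klrb1a and Klrb1c. The annotated gene Gm44511 covers 26.9% of the Klrb1b exonic bases on the same strand, so these 2 shares may count many of the same bases. Windows shared only through this overlap need not align to more than 1 place. Whether the annotation used for counting held Gm44511 is not given, so how many Klrb1b reads were left out is not known. The other measured members of the family had smaller ratios. Klrb1a had 8.90 CPM in DKO and 4.88 CPM in WT (1.83-fold higher), and Klrb1c, which encodes the NK1.1 antigen, had 208 CPM in DKO and 121 CPM in WT (1.72-fold higher, 1.63 to 1.80). The ligand genes did not follow the receptors. Clec2d had 105 CPM in DKO and 94.8 CPM in WT, and Clec2i had 42.7 CPM in DKO and 51.5 CPM in WT, so 0 of 2 ligand genes with at least 1 CPM passed 2-fold. Clec2g had 0 counts in DKO and 9 in WT, and Clec2e and Clec2h had 0 in both.

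The promoter windows of the NKR-P1 pair were 67.8% to 71.9% identical, depending on the annotated start of Klrb1b. The letters GGTGTG, the core of the T-box motif, were found in the windows of Klrb1b and Klrb1f and in no other of the 7 receptor genes with a promoter in the RefSeq table (Klrc1, Klrc2, Klrc3, Klre1 and Klrk1 being the others). No window was available for Klrg1, Klrd1 or Klri2. On both strands, 19.0% of all 32851 promoter windows in the table hold these letters, as do 3 of the 10 windows of the 7 genes. The longer form GGTGTGA was in none of the 7 and in 3.98% of all windows. The letters CAGAC were in 7 of the 10 windows and in 49.6% of all windows. By gene, they were in windows of 5 of the 7 (Klrb1b, Klrb1f, Klrc2, Klrc3 and Klre1). Klre1 holds them in 1 window and not in its other, and the Klrc2 and Klrc3 windows are near copies. In Klrb1b and Klrb1f the T-box core lies 55 and 58 bases before the start inside an identical run of 22 bases, agtgtgggcgGGTGTGgacaca, which no other gene's window in the table contains. These matches describe letters, not binding. The windows are printed because they hold that run, from RefSeq on GRCm38.p6, with Klrb1b on the minus strand at chr6:128826259-128826558 and Klrb1f on the plus strand at chr6:129045651-129045950; capitals mark GGTGTG and CAGAC.
Klrb1b: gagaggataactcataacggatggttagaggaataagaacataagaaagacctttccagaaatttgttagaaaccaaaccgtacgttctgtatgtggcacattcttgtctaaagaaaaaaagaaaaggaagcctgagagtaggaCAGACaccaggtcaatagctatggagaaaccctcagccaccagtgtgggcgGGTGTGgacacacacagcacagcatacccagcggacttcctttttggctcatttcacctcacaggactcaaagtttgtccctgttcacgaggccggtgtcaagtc
Klrb1f: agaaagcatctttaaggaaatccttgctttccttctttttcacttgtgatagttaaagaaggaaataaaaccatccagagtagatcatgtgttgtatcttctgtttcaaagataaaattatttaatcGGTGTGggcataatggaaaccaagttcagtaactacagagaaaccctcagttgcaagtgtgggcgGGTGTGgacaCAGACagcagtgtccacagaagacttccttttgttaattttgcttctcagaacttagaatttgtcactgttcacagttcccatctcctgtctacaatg

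Levels of different genes were compared per kilobase of the longest annotated transcript. In DKO, Klrd1 was highest at 356 CPM per kilobase, followed by Klrk1 at 136, Klrg1 at 63.7, Klre1 at 38.7, Klrb1f at 16.8, Klri2 at 15.1, Klrc1 at 11.8, Klrb1b at 10.9, Klrc2 at 6.18 and Klrc3 at 2.80 CPM per kilobase. The counting intervals of Klrb1f and Klri2, and of Klrc1 and Klrb1b, overlapped. In WT, the order on the same scale was Klrd1 at 282, Klrk1 at 90.9, Klre1 at 62.4, Klrc1 at 13.1, Klri2 at 9.93, Klrg1 at 6.42, Klrb1f at 4.96, Klrb1b at 4.05, Klrc2 at 2.95 and Klrc3 at 0.956 CPM per kilobase. The intervals of Klrg1 and Klrb1f, and of Klrb1f and Klrb1b, overlapped. Klrg1 was therefore in place 3 of this order in DKO and in place 6 in WT. The length was also taken as only those windows of the coding transcript that no other gene shares. Against the longest transcript, this raised the level of each NKG2 gene by over 1.5 times. For Klrc2 the coding transcript alone gave 6.99 CPM per kilobase in DKO. With unshared windows, Klrc1 had 20.3 CPM per kilobase in DKO and 22.4 in WT. Klrc2 had 10.2 in DKO and 4.86 in WT, and Klrc3 5.10 in DKO and 1.74 in WT. Klrc1 thereby moved to place 5 in DKO, and Klrb1b, at 5.83 CPM per kilobase, stood above Klrb1f, at 5.11, in WT. The unshared length of Klrb1b also leaves out windows held by Gm44511, which overlaps it on the same strand. Reads from these need not have been lost, so this level of Klrb1b may be too high. By the longest transcript Klrb1f stood above Klrb1b in WT, with overlapping intervals. With the longest coding transcript as the length, Klre1 stood above Klrg1 in DKO, at 71.9 CPM per kilobase, and above Klrk1 in WT, at 116 CPM per kilobase.

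Among signalling partners of the receptors, a pair of adaptor genes passed the 2-fold limit. Tyrobp (DAP12), the adaptor of NKG2C and NKG2E, had 344 CPM in DKO and 158 CPM in WT and was 2.18-fold higher (2.09 to 2.27). Fcer1g, the adaptor of activating NKR-P1 receptors, had 194 CPM in DKO and 95.003 CPM in WT and was 2.04-fold higher (1.93 to 2.15). Both are also abundant in NK and myeloid cells and are among the NK markers above. The remaining adaptors, Hcst and Cd247, met neither limit, so 2 of 4 were higher. Of 3 phosphatases that carry inhibitory signals 0 passed 2-fold; Ptpn6 (SHP-1) had 599 CPM in DKO and 873 CPM in WT (1.46-fold lower, 1.42 to 1.49). Of 9 listed kinases and relay proteins 0 passed 2-fold and the median log2 ratio was -0.35. Vav1 had 221 CPM in DKO and 323 CPM in WT (1.46-fold lower), and Plcg2, a phospholipase also used by B and myeloid cells, had 69.1 CPM in DKO and 38.1 CPM in WT (1.82-fold higher). Plcg2 was the gene of these 9 with a ratio above 1; that of Pik3r1 also turned above 1 when CD8 T cell markers set the scale.

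On the ligand side of CD94 and NKG2, H2-T23 had 454 CPM in DKO and 397 CPM in WT (1.14-fold higher, 1.11 to 1.18). None of the 6 listed genes of Qa-1 and its peptide supply passed 2-fold. H2-D1, whose leader peptide Qa-1 presents, had 4260 CPM in DKO and 3606 CPM in WT (1.18-fold higher). The peptide transporter gene Tap1 had 491 CPM in DKO and 363 CPM in WT (1.35-fold higher). Hspd1, which encodes the heat shock protein HSP60 that can supply another Qa-1 peptide, had 57.7 CPM in DKO and 109 CPM in WT (1.89-fold lower, 1.76 to 2.03).

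**Figure D4:**
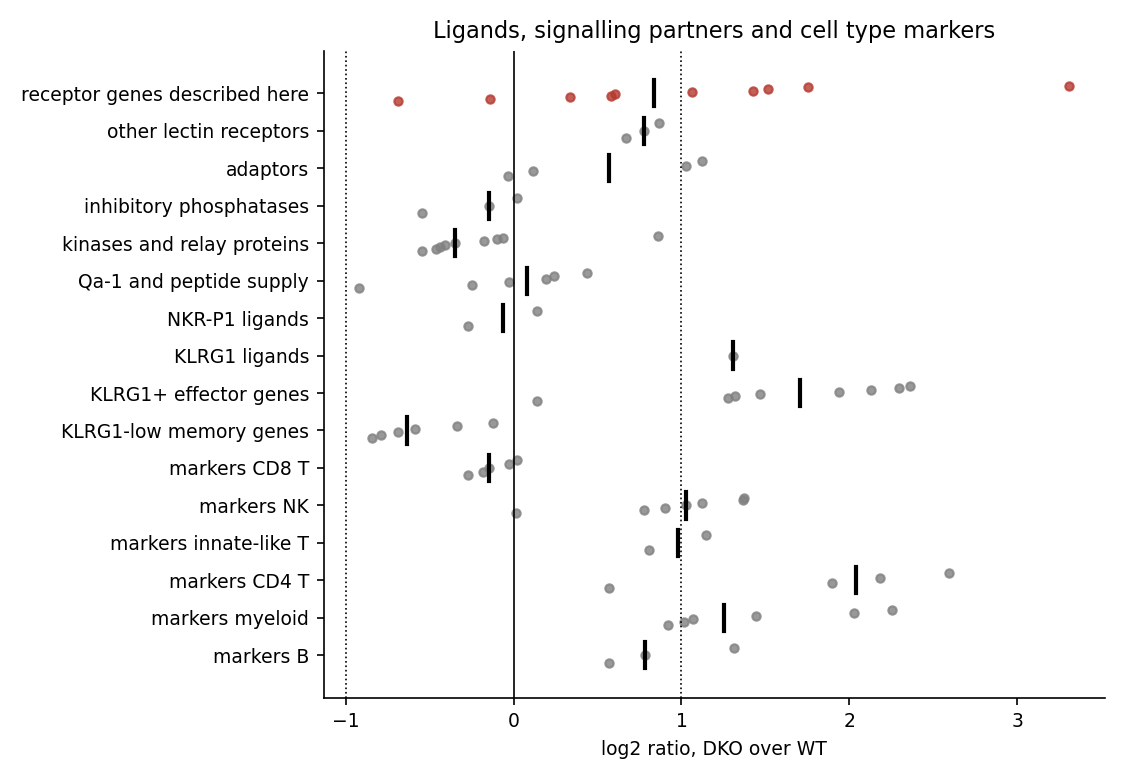
The log2 ratio of DKO over WT for each gene that reached 1 CPM in a library, 1 row per gene list, with the list's median as a black bar and 2-fold limits as dotted lines. The receptor genes (red) spread from -0.69 to 3.31, while CD8 T cell markers lie between -0.27 and 0.02.

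Neighbouring genes of the NK complex did not share a ratio. The order of genes was taken from RefSeq, from Klrb1a to Klra2, a stretch with 92 annotated genes. Of these, 41 were found by symbol among the counted genes. At least 1 CPM was reached by 32, 9 of them receptor genes described here, and neighbours below are neighbours among these 32. Of the 32, 11 were higher, 1 lower and 20 neither, beside 11.6% higher and 3.6% lower among all genes. Klre1, at 1.61-fold lower, lies beside Klrd1 and Klrk1, which were 1.26-fold and 1.49-fold higher, and Klrc1, with a log2 ratio of -0.14, lies beside Klrc2 at 1.06. Genes past 1 CPM in DKO only, which could not be called lower, were Klrc3, Clec1b, Olr1 and Klra17. Between Clec12a and Olr1, a stretch picked after its values were seen, Clec7a, encoding Dectin-1 of myeloid cells, had 68.9 CPM in DKO and 18.9 CPM in WT (3.64-fold higher), and Clec9a, of cross-presenting dendritic cells, had 13.7 CPM in DKO and 5.47 CPM in WT (2.50-fold higher). Klrg1 lies on the same chromosome outside this stretch.

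**Figure D5:**
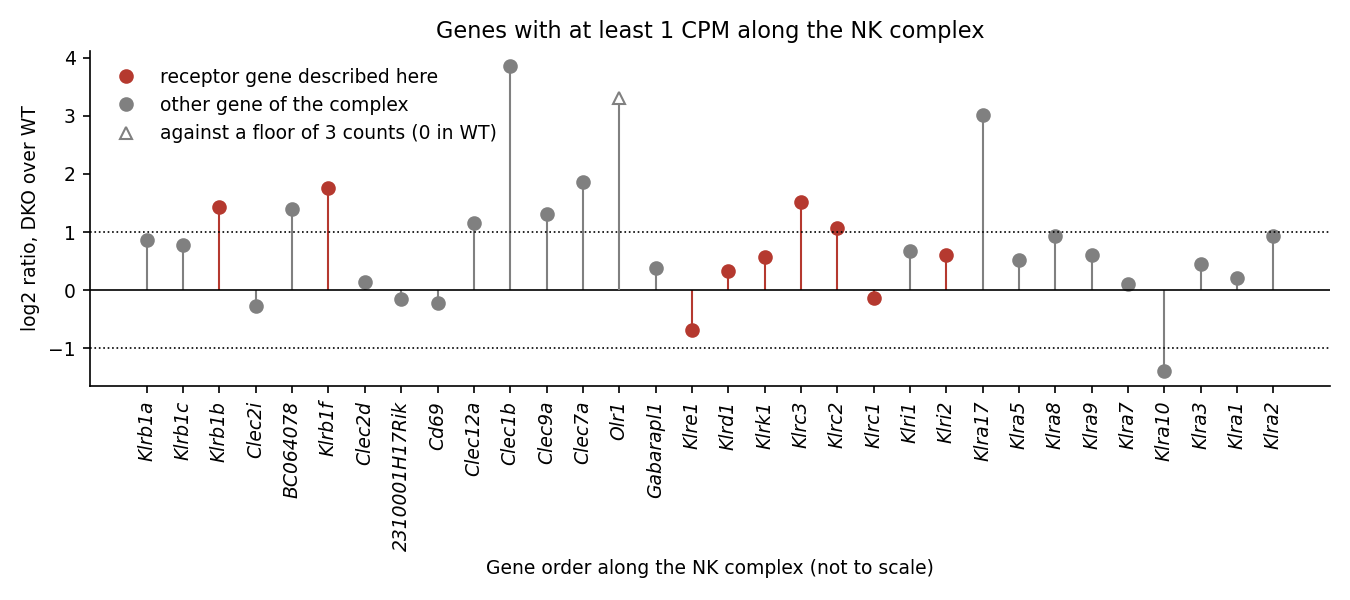
The log2 ratio of DKO over WT for the 32 genes with at least 1 CPM in their order along the NK complex (not to scale), with the receptor genes described here in red. The open triangle is Olr1, with 27 counts in DKO and 0 in WT, drawn at its fold of 9.87 against a floor of 3 counts, with an exact interval that starts at 7.49; Klre1 lies below 0 beside Klrd1 and Klrk1 above it.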

How the data were processed

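Transcripts were counted in 1 DKO and 1 WT library of sorted CD8+ regulatory T cells, grouped by the genotype label. Per the labels' protocols, total RNA libraries were read as single-end reads of 50 bases. The authors deposited whole-number read counts per gene, not normalised. Build mm9 and the tools HTSeq, TopHat2 2.0.8b and bcl2fastq are named in the submitters' processing notes; the annotation and the strand setting were not given in the sources used here. The 5 rows that name no gene were left out; non-unique alignments made up 64.8% of all row counts in DKO and 66.4% in WT.

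Counts were scaled by TMM factors (edgeR 4.0.16, R 4.3.3; 1.02 for DKO, 0.983 for WT) to give CPM. For log2 ratios, a prior count of 0.5 was added. Ratio and share intervals are exact Clopper-Pearson 95% intervals (scipy 1.17.1). They cover counting error only. PCR copies of a molecule were counted without molecular identifiers, so the intervals may be too narrow even for that. With a lone library for each genotype, spread between animals cannot be estimated and no p-values are given. The floor is 3 counts in a library. The comparison was tested on simulated Poisson counts with planted ratios. These held no spread between animals, cell mixture or PCR copies.

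The members and gene lists were chosen with earlier results of these data known. All 10 members, the targeted genes and genes of the lists could be named, plus the 5 genes nearest to Klrg1; Clec and Olr1 genes of the NK complex were chosen after their values were seen. Transcript lengths, shared windows and exon overlap come from GENCODE M21 (GRCm38), and promoters and gene order from RefSeq (GRCm38.p6), not mm9. Promoters were aligned globally with Biopython 1.88. The genes H60a, H2-L, Clec2f, Clec2j, Syk, Klrb1, Klrh1, Trdc and Tcrg-C1 were on the lists but not analysed here. Protein sequences were not used here. Alternatives were total-count, DESeq2 1.42.0 and CD8 marker scaling, other minimums, fold limits and a prior count of 5.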

Additional observations from a re-analysis of the deposited data

How the results depend on the processing

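The same 5 receptor genes were higher and 0 lower under total-count, DESeq2 or CD8 marker scaling, a prior count of 5 and no minimum. Of all genes tested, 12.2%, 11.6%, 12.8%, 10.9% and 14.5% were higher under these settings, in that order. A limit of 1.5-fold gave 6 higher and 1 lower (Klre1) receptor genes. In all, 2072 genes were higher (17.7% of the 11735 tested) and 988 lower, against 1361 and 423 at 2-fold. A limit of 4-fold left 1 receptor gene (Klrg1), with 515 higher (4.39%) and 139 lower genes in all. A minimum of 5 CPM took out Klrc3 and left 4 higher receptor genes. Of the 9953 genes then tested, 738 were higher (7.41%) and 147 lower. With no minimum, 1987 of 13678 genes were higher and 693 lower. The median log2 ratio of the receptor genes ranged from 0.61 at the minimum of 5 CPM to 0.92 under CD8 marker scaling. Their mean was 0.98. Each receptor gene kept the sign of its log2 ratio under all 3 scalings and the larger prior; Klrc1 ranged from -0.14 to -0.05 and Klrg1 from 3.28 to 3.40. Scaling moved the median of all genes by at most 0.09. Lengths of 2 other kinds were added after seeing the data, the longest coding transcript and its unshared windows. Under both, Klrg1 took place 4 and Klre1 place 3 in DKO, and Klre1 place 2 in WT. No paired analysis was possible because each genotype has 1 library, and no library could be left out for the same reason. Klrc3 rests on 40 counts in DKO and 15 in WT, which limits its interval most.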

Other observations

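Of 4045 genes that reached 5 CPM in a library and had a mean level within 2-fold of that of Klrg1, the 5 with the nearest log2 ratio of DKO over WT were Lcn2, Cd177, Itga1, Chi3l3 and Cx3cr1, over the 2 libraries compared. Lcn2, which encodes a siderophore-binding protein of neutrophil granules, had 176 CPM in DKO and 18.5 CPM in WT (9.51-fold higher, interval 8.58 to 10.6), closest to Klrg1 at 9.94-fold. Cd177, a neutrophil surface gene, had 53.3 CPM in DKO and 6.15 CPM in WT (8.66-fold higher). Itga1, which encodes the collagen-binding integrin CD49a of tissue-resident T and NK cells, had 73.5 CPM in DKO and 11.3 CPM in WT (6.53-fold higher). Chi3l3, a chitinase-like gene of macrophages and neutrophils, had 123 CPM in DKO and 20.9 CPM in WT (5.86-fold higher), and Cx3cr1 is given above. A likeness over 2 libraries is a closeness of 1 ratio and of level.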
